A study of Mus musculus with 9 samples.

Results

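The Rab GTPases of vesicle traffic were followed in HPC7 cells with and without forced expression of the transcriptional repressor Snai1. Members were all identifiers of the deposited count table whose Entrez number carries a mouse symbol made of Rab, a number and at most a letter and a further digit. This gave 59 genes of 27179, and 46 of them had enough counts to be tested. HPC7 is a mouse hematopoietic progenitor line that grows in stem cell factor, here at 100 ng/ml in RPMI with 10% fetal calf serum and 0.05 mM 2-mercaptoethanol. All cells carried an MSCV-IRES-GFP retrovirus and were sorted for GFP 1 week after transduction. The empty vector group held the virus without a cDNA, the wild-type group carried Snai1 cDNA, and the mutant group carried Snai1 cDNA in which alanine replaces phenylalanine at residue 5, a change that impairs the contact with the histone demethylase Lsd1. Each group had 3 libraries, and the expression of Snai1 came from a virus on top of the endogenous gene.

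Rab proteins are small GTPases that mark membranes. Exchange factors load them with GTP, GTPase-activating proteins end the signal, and a prenyl group anchors the protein in the membrane. Loaded Rabs recruit effectors such as tethers, motors and coat adaptors, and each Rab acts at its own station, from the endoplasmic reticulum and the Golgi to early, recycling and late endosomes, lysosomes and secretory granules. In blood cells the granule Rabs are known for the release of stored contents, and the endosomal Rabs for receptor recycling and phagosome maturation.

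Library totals ran from 18332451 to 20860314 counts. Snai1 itself was at 0.698 to 1.06 CPM (counts scaled to library size) in the empty vector libraries, 425 to 562 in the wild-type and 415 to 493 in the mutant libraries, so the labels matched the expressed gene, and Kdm1a, which encodes Lsd1, lay between 193 and 208 in all 9. CPM values here are scaled by the trimmed mean of M-values (TMM). The progenitor markers Kit, Cd34, Gata2, Lmo2, Tal1, Lyl1, Lhx2 and Myb summed to between 7588 and 9283 CPM in every library, with 2 called higher and 3 lower in wild type. Wild-type replicate 1 stood apart from its group: 5.29% of the 12484 tested genes differed by at least 1 log2 unit from the mean of wild-type replicates 2 and 3. In empty vector replicate 1, a single identifier without a symbol took 3.62% of the counts. The labels do not say whether the 3 libraries of a group came from separate transductions, so the spread within groups may be technical. A p-value here covers no more than that spread, taken over all 9 libraries in one fit. Each comparison of 2 groups thus also carries the spread of the third group. The RNA is bulk RNA, in which fewer cells of a type and less RNA per cell cannot be told apart.

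The summed Rab level was higher in every wild-type library than in any empty vector or mutant library. Over all 59 genes the sum was 4057, 3996 and 4016 CPM in the empty vector libraries and 4781, 4601 and 4699 CPM in the wild-type libraries. The groups did not overlap, and the ratio of the means was 1.17 (1.13 without TMM scaling). With the mutant, the sums were 3953, 3968 and 4044 CPM, and 2 of the 3 lay under the lowest empty vector library, and the ratio to the empty vector was 0.991 (1.005 without TMM scaling, the other direction). These sums are descriptions, given without a test.

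**Figure D1:**
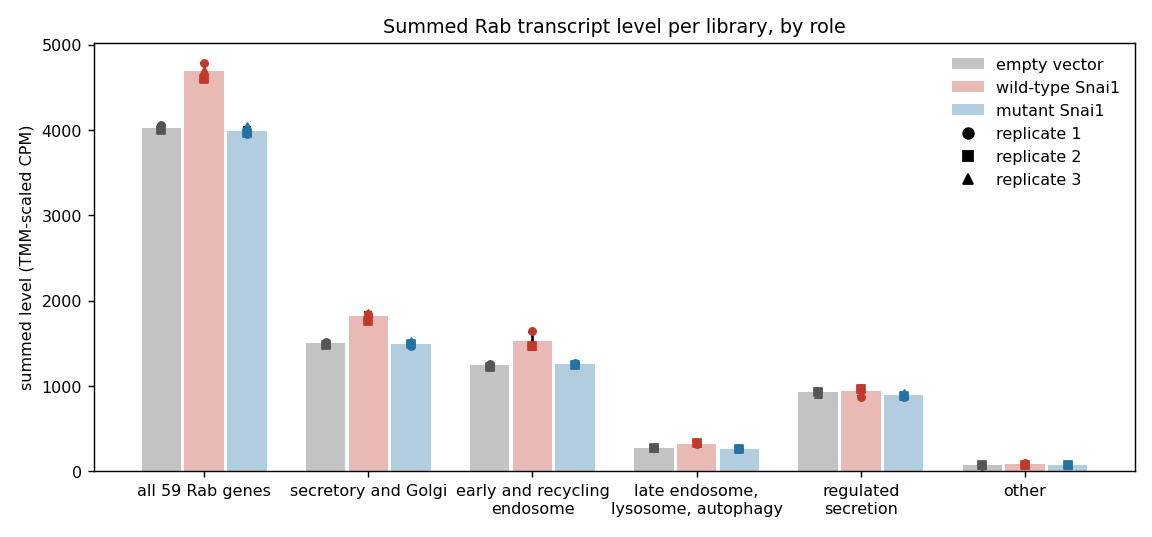
Summed level of the Rab genes in each library, in TMM-scaled CPM, for all 59 genes and for 5 groups by role; bars are means of 3 libraries, lines 1 SD, and symbols the libraries. The wild-type sums of all Rab genes, 4601 to 4781 CPM, lie above the 3996 to 4057 CPM of the empty vector libraries, while the regulated secretion group shows no such step.

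Of the 46 tested members, 29 rose with wild-type Snai1 against the empty vector and 3, Rab29, Rab37 and Rab38, fell (edgeR quasi-likelihood test over all 12484 tested genes, Benjamini-Hochberg adjusted p under 0.05). In either direction this is 69.6% of tested members, beside 49.4% of all tested genes. By direction it is 63.0% higher and 6.52% lower, where 25.2% of all tested genes were called higher and 24.3% lower. The median log2 change was 0.27 for the members and 0.00 for all tested genes, and 37 of 46 members had a value above 0. Most of these rises were small: 22 of the 29 higher members rose by less than 1.5-fold, between 1.14-fold and 1.42-fold. At 1.5-fold or more, 7 members were called higher, beside 11.2% of all tested genes, and 1 was called lower, beside 11.3%. In 35 of 46 members the 3 wild-type libraries did not overlap the 3 empty vector libraries, which was the case for 56.6% of all tested genes. One of the 29, Rab7b, passed the low-count filter only through the wild-type libraries, and its count among the called members carries no weight of its own.

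**Figure D2:**
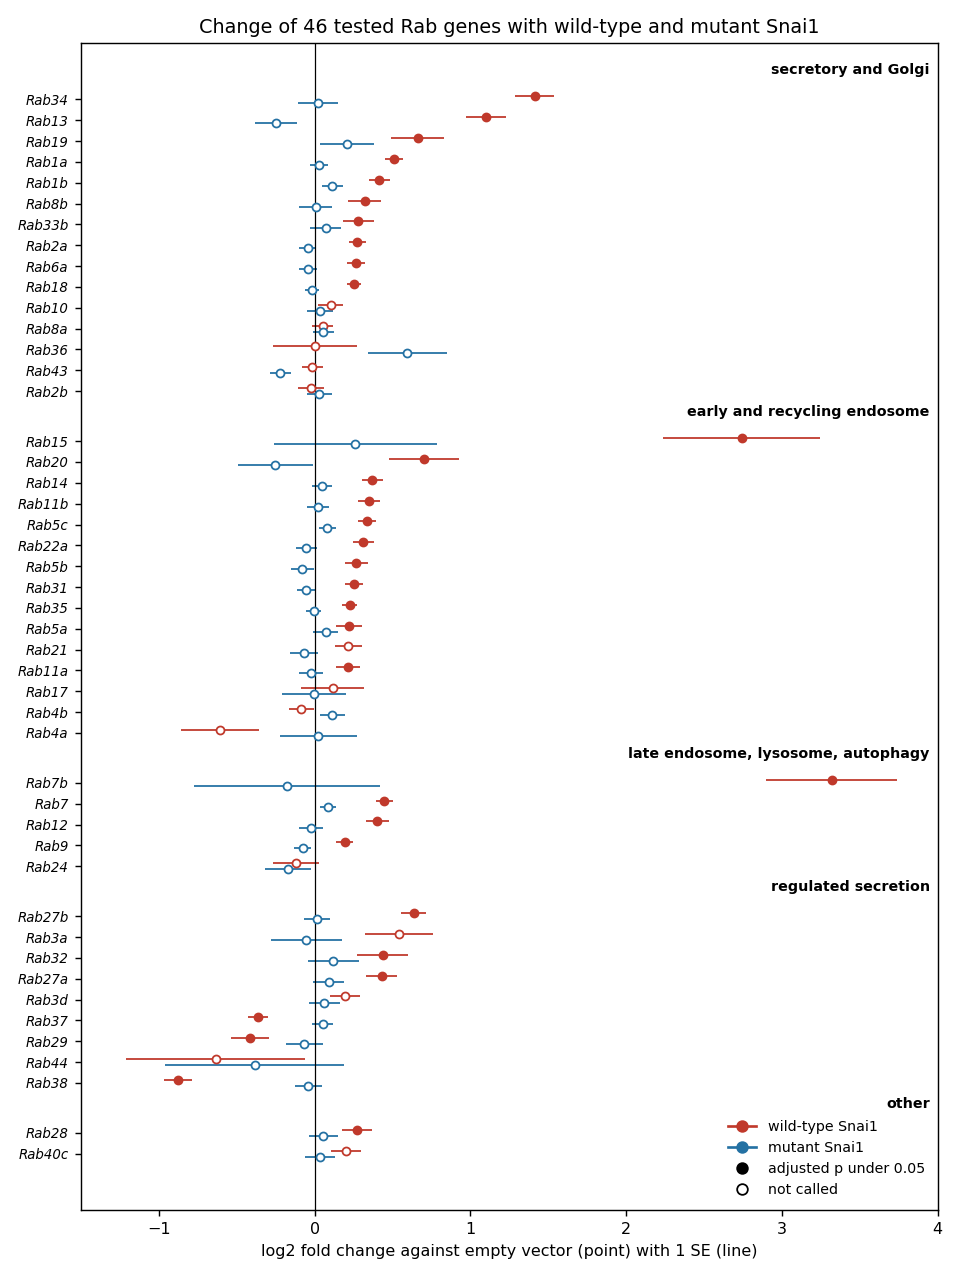
Log2 fold change of the 46 tested Rab genes with wild-type Snai1 (red) and mutant Snai1 (blue) against the empty vector, with lines of 1 SE, ordered by role and size; filled points have an adjusted p under 0.05. The red points lie mostly to the right of 0, with Rab7b at 3.32 and Rab38 at -0.88 as the ends, and no blue point is filled.

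Among the 20 secretory pathway and Golgi Rabs, 15 were tested, 10 rose and none fell. The counts of each role stand beside 25.2% of all tested genes called higher and 24.3% called lower in this comparison. Rab1a and Rab1b, which drive transport from the endoplasmic reticulum to the Golgi, are 2 of the 5 members with the highest level per length. Rab1a read 194, 194 and 189 CPM with the empty vector, 294, 257 and 271 with wild-type Snai1, and 194, 188 and 206 in the mutant libraries. Every wild-type library was above the other 6, and the log2 change was 0.51 (SE 0.06, adjusted p = 6.31e-05). Rab1b read 126, 135 and 119 CPM, then 162 to 183 in the wild-type libraries and 133 to 141 in the mutant libraries, a log2 change of 0.42 (SE 0.07, adjusted p = 0.000565).

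Rab34 and Rab13 made the largest steps of the Golgi group. Rab34, a Golgi Rab that positions lysosomes through the effector Rilp and takes part in cilium formation, read 12.8, 12.6 and 10.2 CPM with the empty vector. It read 33.5, 32.2 and 29.0 CPM with wild-type Snai1 and 12.3, 13.6 and 10.3 CPM with the mutant. The wild-type libraries stood clear of both other groups, and the log2 change against the empty vector was 1.41 (SE 0.12, adjusted p = 8.84e-06). Rab13, which acts between the trans-Golgi network and the plasma membrane and at tight junctions, read 8.40, 8.43 and 7.99 CPM with the empty vector. With wild-type Snai1 it read 14.3, 20.2 and 18.7 CPM, and with the mutant 6.73, 7.09 and 7.10 CPM. The log2 change of Rab13 was 1.10 (SE 0.13, adjusted p = 6.73e-05), and its 3 mutant libraries all lay just under the empty vector libraries, at a log2 change of -0.25 (SE 0.14, adjusted p = 0.982).

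Rab19, a little studied Golgi Rab linked to cilium formation, was less even. It read 11.4, 11 and 8.69 CPM with the empty vector, 20.5, 15.3 and 13.5 with wild-type Snai1 and 12.1, 10.4 and 13.4 in the mutant libraries. The wild-type libraries were the highest 3 of the 9, although the lowest of them was close to the highest mutant library. The log2 change against the empty vector was 0.66 (SE 0.17, adjusted p = 0.00887). The other 5 risers of this group were Rab2a, Rab6a, Rab8b, Rab18 and Rab33b, with smaller changes, among them Rab8b, an exocytic Rab, by 0.32 (SE 0.11, adjusted p = 0.0282) and Rab18, a Rab of lipid droplets and the endoplasmic reticulum, by 0.25 (SE 0.05, adjusted p = 0.00125). Rab2a, Rab6a and Rab18 were called in all 17 alternative settings, Rab8b in 10 and Rab33b in 8, and the Rab33b call was lost with the replicate number as a block. Rab8b overlapped between the groups, since wild-type replicate 1 was at 211 CPM, the level of empty vector replicate 1. Not called were Rab10 (log2 change 0.10, SE 0.08), Rab8a (0.05, SE 0.07), Rab36, Rab43 and Rab2b. Exons of Rab6a and of Mrpl48 share 708 bases on opposite strands, Rab43 shares 4164 exon bases with Gm45140 on its own strand, and Rab2b shares bases with Tox4, so counts of these genes can include reads of a neighbour. The same holds for further members. Among them, Rab18 shares 305 exon bases with AC131796.2 on its own strand. On the opposite strand, Rab20 shares 356 with E230013L22Rik, Rab11b 329 with Gm17251 and Rab7 204 with Gm5577.

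The bases before the annotated starts of 6 Rab genes are given here: the 5 members that rose by 1.5-fold or more with wild-type Snai1 and have an entry in the RefSeq promoter table, together with Rab5c, the member with the highest level per length. Snail proteins are known to bind the E-box CAGGTG, which reads CACCTG on the other strand. Each line holds the 250 bases before a RefSeq start of GRCm38.p6, 5′ to 3′ on the strand of the gene, with CAGGTG or CACCTG in capitals, and likewise the E-box CACGTG. Rab15 has several starts, and the one with the E-box and the one farthest upstream in that table are shown. For Rab34 and Rab13, which also have more than one, the start farthest upstream is shown.
Rab15, GRCm38 chr12:76818375-76818624, minus strand: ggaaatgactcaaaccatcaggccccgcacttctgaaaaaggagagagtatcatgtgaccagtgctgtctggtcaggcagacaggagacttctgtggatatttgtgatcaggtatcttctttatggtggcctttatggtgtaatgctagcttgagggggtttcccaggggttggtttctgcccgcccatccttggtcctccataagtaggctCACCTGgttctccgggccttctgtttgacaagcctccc
Rab15, GRCm38 chr12:76822525-76822774, minus strand: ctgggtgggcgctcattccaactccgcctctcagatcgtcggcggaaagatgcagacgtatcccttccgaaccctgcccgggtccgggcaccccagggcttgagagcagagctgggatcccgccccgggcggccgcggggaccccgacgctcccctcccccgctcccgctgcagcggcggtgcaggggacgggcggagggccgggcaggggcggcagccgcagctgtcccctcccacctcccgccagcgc
Rab19, GRCm38 chr6:39381103-39381352, plus strand: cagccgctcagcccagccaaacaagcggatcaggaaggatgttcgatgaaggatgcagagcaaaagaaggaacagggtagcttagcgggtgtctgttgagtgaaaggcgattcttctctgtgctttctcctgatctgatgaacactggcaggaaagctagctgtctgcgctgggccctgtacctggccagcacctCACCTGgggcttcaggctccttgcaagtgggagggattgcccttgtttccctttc
Rab34, GRCm38 chr11:78188177-78188426, plus strand: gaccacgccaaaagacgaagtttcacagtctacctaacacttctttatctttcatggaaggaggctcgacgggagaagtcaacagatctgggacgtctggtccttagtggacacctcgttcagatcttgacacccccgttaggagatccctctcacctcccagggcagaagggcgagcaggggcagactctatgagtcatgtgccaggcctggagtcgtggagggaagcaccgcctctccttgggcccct
Rab13, GRCm38 chr3:90213465-90213714, plus strand: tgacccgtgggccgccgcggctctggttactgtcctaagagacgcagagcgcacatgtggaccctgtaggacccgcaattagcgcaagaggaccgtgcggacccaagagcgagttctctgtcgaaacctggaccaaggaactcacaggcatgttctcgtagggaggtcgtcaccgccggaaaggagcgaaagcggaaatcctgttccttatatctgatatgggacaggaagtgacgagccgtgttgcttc
Rab20, GRCm38 chr8:11478641-11478890, minus strand: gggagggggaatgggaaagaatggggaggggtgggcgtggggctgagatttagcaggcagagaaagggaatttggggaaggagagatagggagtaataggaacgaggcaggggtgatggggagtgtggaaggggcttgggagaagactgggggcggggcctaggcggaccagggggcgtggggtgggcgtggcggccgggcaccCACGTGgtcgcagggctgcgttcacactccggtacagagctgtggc
Rab5c, GRCm38 chr11:100738216-100738465, minus strand: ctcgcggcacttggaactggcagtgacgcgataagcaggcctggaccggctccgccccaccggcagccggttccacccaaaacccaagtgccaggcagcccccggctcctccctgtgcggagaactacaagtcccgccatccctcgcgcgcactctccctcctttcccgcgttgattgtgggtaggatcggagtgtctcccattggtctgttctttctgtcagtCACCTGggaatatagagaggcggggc

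In these windows the E-box began 38 bases before one Rab15 start, 55 bases before the Rab19 start and 26 bases before the Rab5c start. The windows printed for Rab34, Rab13 and Rab20 and the upstream Rab15 window did not hold these letters on either strand. Over the 48 members with an entry, taking windows from 250 bases before to 50 bases after each start, 10 genes (20.8%) held CAGGTG or CACCTG, beside 22.6% of all 27025 genes with an entry and 20.3% of tested genes. Among the 25 members called higher that have an entry, 6 (24.0%) held it. The Rab20 window held CACGTG, beginning 46 bases before its start. The E-box CACGTG, its own reverse complement, known as the core of the site of Myc and Mitf/Tfe factors, was in 6 of 48 member genes (12.5%), beside 11.8% of tested genes. Both shares were near those of the tested genes, and a match of letters is no evidence of binding. Rab2a, Rab4a, Rab7b, Rab18, Rab26, Rab27b, Rab30, Rab36, Rab37, Rab38 and Rab44 had no entry.

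Of the 16 early and recycling endosome Rabs, 15 were tested, 11 rose and none fell. Rab5c, one of the Rab5 proteins that drive fusion of early endosomes, had the highest level per length of all members. Its RPKM (TMM-scaled CPM per kilobase of the deposited gene length) was 145 ± 5.79 with the empty vector and 183 ± 11 with wild-type Snai1 (SD, n = 3). In CPM, Rab5c read 219, 227 and 238 with the empty vector, 307, 282 and 274 with wild-type Snai1 and 245, 242 and 237 in the mutant libraries. The wild-type libraries were above all others, and the log2 change was 0.34 (SE 0.06, adjusted p = 0.000714).

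Rab15, which slows the recycling of transferrin receptor from early endosomes, had the second largest change of all members and a wide spread. It read 6.86, 7.61 and 9.28 CPM with the empty vector, 100.1, 29.7 and 29.2 CPM with wild-type Snai1, and 9.94, 10.3 and 8.18 CPM with the mutant. Wild-type replicate 1 was far above wild-type replicates 2 and 3, and all 3 were above the other 6 libraries. The log2 change against the empty vector was 2.74 (SE 0.50, adjusted p = 0.00244), and it was 1.90 without wild-type replicate 1, where the adjusted p was 9.3e-10 (9.3e-10 to 0.0111 over 17 alternative settings).

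Rab20, known from hypoxia and from phagosome maturation in macrophages, was low. It read 2.02, 1.54 and 2.25 CPM with the empty vector, 2.69, 2.89 and 3.86 with wild-type Snai1 and 1.89, 1.65 and 1.33 in the mutant libraries. The log2 change against the empty vector was 0.70 (SE 0.22, adjusted p = 0.0247). Rab20 was no longer called when empty vector replicate 1 (adjusted p = 0.0552), empty vector replicate 2 (0.0999) or wild-type replicate 3 (0.0867) was left out, in a range from 0.00574 to 0.0999 over 17 alternative settings.

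The 8 further risers of the endosomal group, with log2 changes between 0.22 and 0.37, were Rab14, Rab11b, Rab22a, Rab5b, Rab31, Rab35, Rab5a and Rab11a. Rab14, which links the Golgi with endosomes, rose by 0.37 (SE 0.06, adjusted p = 0.00085), and Rab11b, of the recycling endosome, rose by 0.35 (SE 0.07, adjusted p = 0.00209). Rab5a and Rab11a, paralogs of Rab5b and Rab11b, rose by 0.22 each, with adjusted p of 0.0465 and 0.0379. They kept the call in 7 and 9 of 17 alternative settings, and both lost it with the replicate number as a block. Rab21, which carries integrins, was at 0.22 (SE 0.09, adjusted p = 0.0631) and was not called. Rab4a, of fast recycling, read 52.2, 46.5 and 46.1 CPM with the empty vector and 17.5, 36.8 and 40.7 CPM with wild-type Snai1. All wild-type libraries of Rab4a were lower, but the spread between them left the log2 change of -0.61 (SE 0.25) at an adjusted p of 0.0741. Its paralog Rab4b, which shares 1280 exon bases with Gm21983 on the same strand, was at -0.09 (SE 0.08, adjusted p = 0.41).

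Of the 6 Rabs of late endosomes, lysosomes and autophagy, 5 were tested, 4 rose and none fell. Rab7, the GTPase of late endosome to lysosome fusion, read 79.3, 80.2 and 76.0 CPM with the empty vector, 109.6, 102 and 109.5 with wild-type Snai1 and 83.4, 83.0 and 83.5 in the mutant libraries. The spread within each group was small, the wild-type libraries stood apart, and the log2 change was 0.45 (SE 0.05, adjusted p = 7.3e-05). Rab7b, which returns cargo from late endosomes to the trans-Golgi network and is known from monocytes, had the largest change. It read 0.213, 0.385 and 0.376 CPM with the empty vector, 3.74, 2.15 and 4.06 CPM with wild-type Snai1 and 0.255, 0.0998 and 0.511 CPM with the mutant. In counts these are 19 reads over the empty vector libraries, 200 over the wild-type and 17 over the mutant libraries. The log2 change of Rab7b was 3.32 (SE 0.42, adjusted p = 0.00011). Rab7b passed the low-count filter only through the wild-type libraries, so its call, counted among these 4, carries no weight of its own. Rab12, which sends transferrin receptor to degradation, rose by 0.40 (SE 0.08, adjusted p = 0.00145), and Rab9, of mannose 6-phosphate receptor retrieval, by 0.19 (SE 0.05, adjusted p = 0.012). Rab24, linked to autophagy, was at -0.12 (SE 0.15, adjusted p = 0.522), and it shares 1258 exon bases with Prelid1 on the opposite strand.

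The 12 Rabs of regulated secretion and lysosome-related organelles did not share the one-sided rise of the groups above: of 9 tested, 3 rose and 3 fell. Of all tested genes, 25.2% were called higher and 24.3% lower. Rab27b, which docks secretory granules and exosome-bearing endosomes at the plasma membrane, gave more reads than any other member. It read 312, 308 and 292 CPM with the empty vector, 534, 438 and 445 with wild-type Snai1 and 296, 296 and 329.9 in the mutant libraries. The groups did not overlap between wild type and either other group, and the log2 change against the empty vector was 0.64 (SE 0.08, adjusted p = 0.000117). Its paralog Rab27a, the granule Rab of cytotoxic and myeloid cells, rose by 0.43 (SE 0.10, adjusted p = 0.0052), from 68.3 to 74.2 CPM over the empty vector libraries to 79.3, 108 and 102 CPM. Rab32 rose by 0.44 (SE 0.16, adjusted p = 0.0481), with wild-type replicate 1 at 20.9 CPM and the others at 13.0 and 13.5, beside 11.1 to 12.2 in the empty vector libraries. Rab32 kept the call in 6 of 17 alternative settings, with adjusted p from 0.0197 to 0.135, and its log2 change was 0.19 without wild-type replicate 1.

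Rab38 fell. It is the close relative of Rab32 with which it shares the work of building lysosome-related organelles such as melanosomes. It read 209.6, 224 and 211 CPM with the empty vector, 99.0, 129 and 123 with wild-type Snai1 and 211, 216 and 201 in the mutant libraries. Every wild-type library lay at 129 CPM or less and every other library at 201 CPM or more, a log2 change of -0.88 (SE 0.09, adjusted p = 2.29e-05). Per length, Rab38 was at 136 ± 5.15 RPKM with the empty vector, where it ranked 2 of 59 and differed from Rab5c by less than the sum of the SDs. With wild-type Snai1 it was at 74.3 ± 10.2 RPKM and ranked 7, and with the mutant at 133 ± 4.72 RPKM and ranked 3. Rab7 was at 126 ± 3.56 RPKM with the empty vector, a value that rests on a deposited length of 624 bases, and ranked 18 by CPM over all libraries.

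Rab37, a Rab of mast cell granules, had a log2 change of -0.36 (SE 0.07, adjusted p = 0.00104), from 104 to 113 CPM in the empty vector libraries to 76.7, 88.5 and 87.3 CPM. Rab29, known for bringing the kinase Lrrk2 to stressed lysosomes and the Golgi, fell by 0.42 (SE 0.12, adjusted p = 0.0161), with wild-type libraries at 18.3, 14.0 and 12.9 CPM. The Rab29 call was lost in 3 of 17 alternative settings, among them the fit without wild-type replicate 2. Rab3d, an exocytic Rab of granules, was not called at 0.20 (SE 0.10, adjusted p = 0.123), nor was Rab3a, the Rab of synaptic vesicles, at 0.54 (SE 0.22, adjusted p = 0.0605). As a sum, this group read 938, 937 and 912 CPM with the empty vector and 877, 962 and 974 CPM with wild-type Snai1, overlapping. The ratio was 1.01 (0.979 without TMM scaling), while the ratios of the other 4 groups were between 1.18 and 1.23 (1.14 and 1.19 without it). This sum joins the rise of Rab27b with the fall of Rab38. Its lowest library, wild-type replicate 1, is also the one in which Rab44, which was not called, was far lower than in wild-type replicates 2 and 3.

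**Figure D3:**
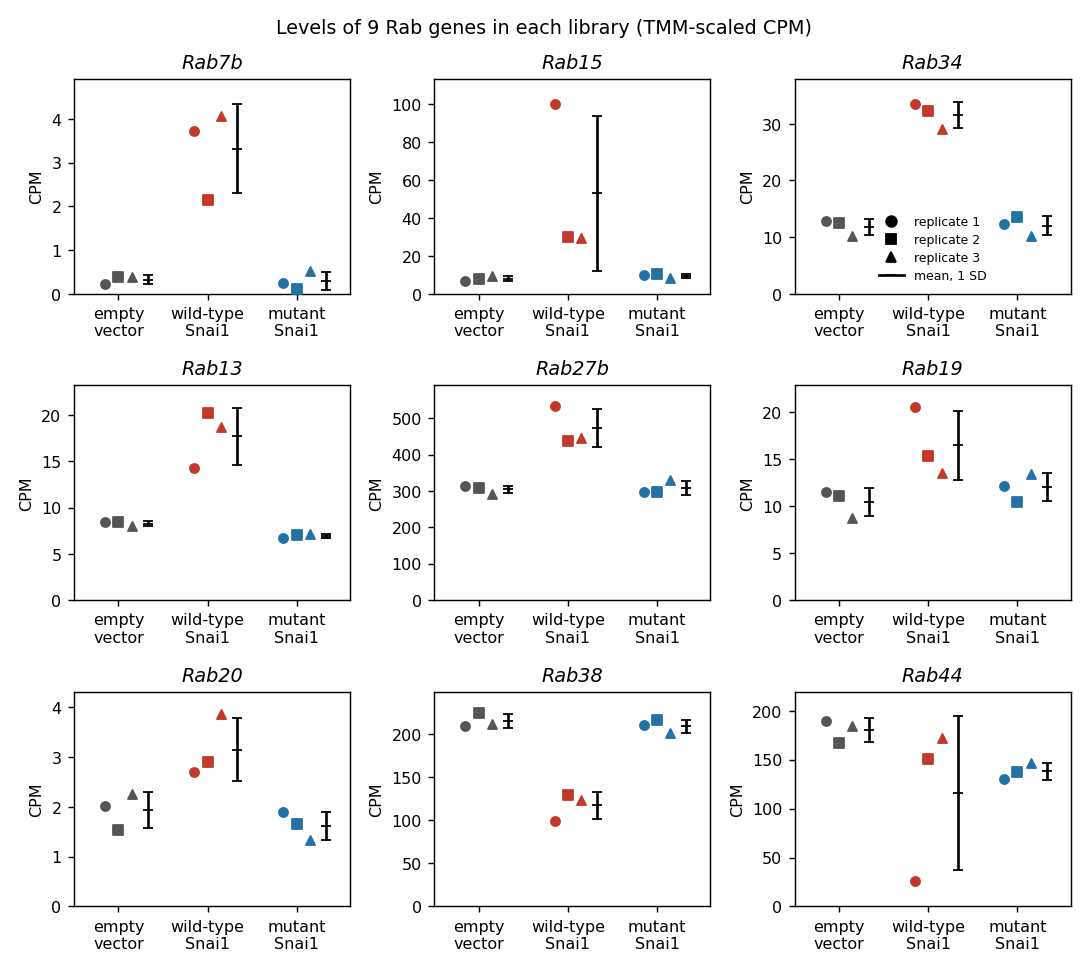
Library by library levels of 9 Rab genes on linear axes from 0 (CPM with TMM scaling); symbols mark the replicate number and the black bars the mean with 1 SD. Rab7b, Rab15, Rab34, Rab13, Rab27b, Rab19 and Rab20 are higher in all wild-type libraries than with the empty vector, Rab38 is lower, and Rab44 shows wild-type replicate 1 at 25.9 CPM beside 150.4 and 172 CPM.

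Rab28 rose by 0.27 (SE 0.10, adjusted p = 0.0355) among the 5 members of other or little known roles, and Rab40c was at 0.20 (SE 0.10, adjusted p = 0.106). Rab28 kept the call in 7 of 17 alternative settings, with adjusted p up to 0.125, and its log2 change was 0.15 without wild-type replicate 1. Rab28 and Rab40c were the only 2 of the 5 with enough counts. The 13 members with too few counts for a test, with their totals over all 9 libraries, were Rab25 with 42, Rab33a with 29, Rab30 with 21, Rab23 and Rab39b with 7 each, Rab26 and Rab3b with 5 each, Rab40b with 4, Rab6b with 3, Rab39 with 2, and Rab3c, Rab42 and Rab9b with none. No library held more than 9 counts of any of them. The filter asked for about 10 counts, or 0.511 CPM, in at least 3 libraries, and 45 of the 46 tested members reached it in all 9. The brain-enriched forms Rab3b, Rab3c and Rab6b are thus at or near 0, where Rab6a was at 192 ± 5.25 CPM and Rab3d at 16.1 ± 0.491 CPM with the empty vector (SD, n = 3).

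The response was not the same in every wild-type library. Against the empty vector mean, the median log2 difference of the 46 members was 0.34 in wild-type replicate 1, 0.21 in replicate 2 and 0.23 in replicate 3, with 37, 36 and 38 members above 0. For all tested genes the same medians were -0.02, 0.01 and -0.00. So the shift of the family was present in each library, while 3 members differed by at least 1 log2 unit between wild-type replicate 1 and the mean of the other two: Rab44 by -2.63, Rab15 by 1.76 and Rab4a by -1.14. This is 6.52% of the members, beside 5.29% of all tested genes. Between wild-type replicates 2 and 3 no member differed that much.

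Rab44, Rab4a and Rab17 are named here because of their values. Rab44, a large atypical Rab with EF-hand motifs known from mast cells and osteoclasts, read 189.6, 167 and 185 CPM with the empty vector, 25.9, 150.4 and 172 with wild-type Snai1 and 130.2, 137 and 147 in the mutant libraries. The log2 change of -0.64 (SE 0.58, adjusted p = 0.4) against the empty vector rests on wild-type replicate 1, and it was -0.16 without it. Against the mutant, Rab44 was at -0.25 with all libraries and at 0.22 without wild-type replicate 1 (adjusted p = 0.0141, range 0.0141 to 0.833). Rab4a was at -0.32 against the empty vector without that library and was then called lower (adjusted p = 0.0021, range 0.0021 to 0.148). Rab17, an epithelial recycling Rab, read 47.8 CPM in wild-type replicate 1 and 27.3 and 26.4 in the others, beside 27.8 to 33.3 with the empty vector. Its log2 change turned from 0.12 to -0.22 without that library (adjusted p = 0.0405, range 0.0405 to 0.9). Without it, 27 of the 29 higher members were called, Rab28 and Rab32 being lost, and 5 members were called lower. Over all 12619 genes tested in that fit, 3779 were called higher and 3631 lower.

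**Figure D4:**
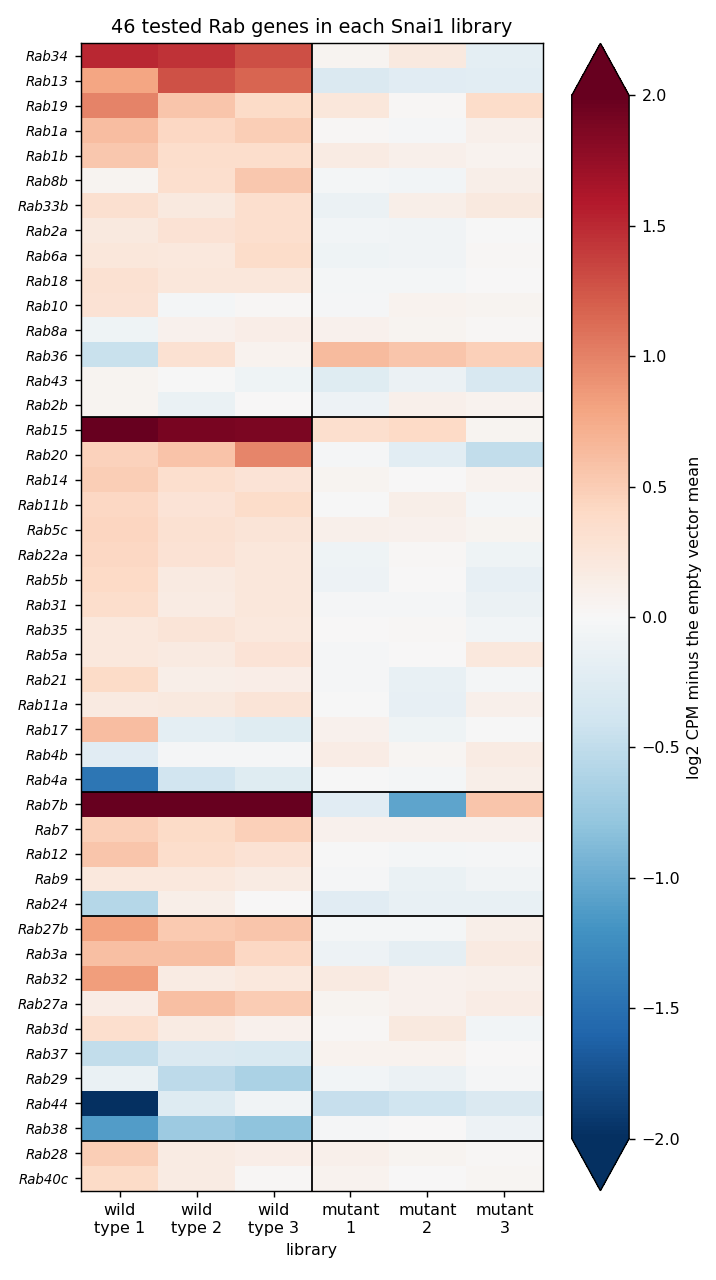
Difference of the log2 level of 46 Rab genes from the empty vector mean in each wild-type and mutant library; rows are grouped by role with black lines between groups, and the colour scale ends at 2 log2 units in each direction. The 3 wild-type columns are mostly red and the mutant columns pale, with medians of 0.21 to 0.34 and of -0.01 to 0.03, and wild-type replicate 1 differs most in Rab44, Rab4a and Rab15.

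Markers of other blood cells moved in the same libraries. The counts below stand beside 25.2% of all tested genes called higher and 24.3% called lower with wild-type Snai1 against the empty vector. The monocyte and macrophage list summed to 35.5 to 35.8 CPM with the empty vector, 587 to 888 with wild-type Snai1 and 36.4 to 46.8 with the mutant, and of its 9 tested genes of 10, 8 were called higher and 1 lower in wild type. Ly6c2 of that list was at 0 in all empty vector libraries. The neutrophil list summed to 4752 to 5350 CPM with the empty vector and to 1027, 2797 and 3272 CPM in wild-type replicates 1, 2 and 3. Mpo made up nearly all of this sum, at 4734 to 5329 CPM with the empty vector and 943, 2653 and 3058 CPM with wild-type Snai1. The fall of the sum is thus that of Mpo, while 4 of 7 tested genes of the list were called higher and 1 lower. Ngp, Mmp8, S100a8, S100a9 and Elane were at 0 with the empty vector. The mast cell and basophil list summed to 2755 to 3126 CPM with the empty vector and to 3542 to 3859 CPM with wild-type Snai1. Cpa3 made up most of it, at 2737 to 3109 and 3491 to 3796 CPM, and of 3 tested genes 2 were called higher and 1 lower. The megakaryocyte list summed to 898 to 1003 and 853 to 1189 CPM, with 4 of 7 tested genes called higher and 2 lower. The erythroid list summed to 755 to 772 and 462 to 679 CPM, all 5 tested erythroid genes being lower. Tfrc made up most of that sum, at 725 to 740 and 446 to 666 CPM. The lymphoid list summed to 13.3 to 15.6 CPM with the empty vector and 5.77 to 6.23 CPM with wild-type Snai1, with both tested genes called lower, and of the fibroblast list no gene was tested. No marker gene was called with the mutant. The part of these changes in the Rab results was not tested.

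With mutant Snai1 no Rab gene passed the test. No member was called in either direction in the main fit, where 0.00801% of all tested genes, Snai1 alone, was called. At an unadjusted p under 0.05 there were 2 members, Rab36 and Rab43, or 4.35%, beside 4.83% of all tested genes. DESeq2 called no member, beside 6 genes higher and 4 lower among the 12476 it tested. The median log2 change was 0.02, with 25 of 46 members above 0, and the groups did not overlap in 10 of 46, beside 17.6% of all tested genes. Rab36, a Golgi Rab that like Rab34 binds Rilp, was the farthest from 0: it read 0.957, 0.867 and 0.751 CPM with the empty vector and 1.38, 1.30 and 1.23 CPM with the mutant, a log2 change of 0.59 (SE 0.25, adjusted p = 0.98). Rab43, of Golgi transport, read 144, 157 and 158 CPM and 130.0, 142 and 123 CPM, a change of -0.22 (SE 0.07, adjusted p = 0.98). Rab44 was lower in all mutant libraries, at -0.39 (SE 0.57, adjusted p = 0.999). It was called only in the fit of the 6 libraries compared (-0.38, SE 0.06, adjusted p = 0.00673) and in the fit without wild-type replicate 1 (-0.38, SE 0.06, adjusted p = 0.023), with a range of 0.00673 to 1 over the alternatives. Over all tested genes, the 6-library fit called 13 higher and 17 lower with the mutant. The fit without wild-type replicate 1 called 28 higher and 34 lower, so the number of mutant calls depends on that library.

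Set directly against the mutant, wild-type Snai1 gave 28 members called higher and 3 called lower, or 60.9% and 6.52% of those tested, beside 24.5% and 23.4% of all tested genes. The libraries of both groups did not overlap in 34 members (73.9%, beside 55.8% of all tested genes), and 35 members (76.1%, beside 54.2%) had an unadjusted p under 0.05. This comparison tests the difference between both forms of Snai1, and it shares the wild-type libraries with the one against the empty vector. The 3 called lower were Rab29, Rab37 and Rab38. Rab37 and Rab38 kept this call in all 17 alternative settings. Rab29 kept it in 9, with adjusted p up to 0.142. Its call was lost when any mutant library, empty vector replicate 2 or 3 or wild-type replicate 2 or 3 was left out, and in the fit of the 6 libraries compared. At 1.5-fold or more, 7 members were higher, beside 11% of all tested genes, and Rab38 alone was lower, beside 10.5%. Rab7b, at a log2 difference of 3.50 (SE 0.43), is counted among the 28 and the 7, but it passed the filter only through the wild-type libraries and carries no weight there either. Wild type exceeded the mutant by 2.48 (SE 0.49) in Rab15, 1.39 (SE 0.12) in Rab34 and 1.35 (SE 0.13) in Rab13 on the log2 scale. The differences were 0.95 (SE 0.23, adjusted p = 0.00595) in Rab20 and 0.62 (SE 0.08, adjusted p = 0.000142) in Rab27b, and Rab38 was lower by a log2 difference of -0.84 (SE 0.09, adjusted p = 3.38e-05).

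Rab3a entered the 1.5-fold set only here. It read 1.12, 1.73 and 1.66 CPM with the empty vector, 2.29, 2.30 and 2.01 with wild-type Snai1 and 1.38, 1.30 and 1.69 in the mutant libraries, a log2 difference of 0.60 from the mutant (SE 0.22, adjusted p = 0.0438). It kept the call in 6 of 17 alternative settings, with adjusted p from 0.0339 to 0.133. Rab19 likewise differed from the mutant by 0.46 (SE 0.17, adjusted p = 0.0474) and kept that call in 6 of 17 settings, with adjusted p from 0.0206 to 0.164. Rab43 and Rab21 were higher than with the mutant (0.21, SE 0.07, adjusted p = 0.0288, and 0.28, SE 0.09, adjusted p = 0.0214) without being called against the empty vector. Rab5a, Rab28, Rab32 and Rab33b were called against the empty vector but not against the mutant.

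The genes that load, switch off, carry and read Rab proteins showed no common direction. Of 160 partner genes on 6 lists, 149 were tested, and 41 were called higher and 36 lower with wild-type Snai1 against the empty vector, beside 25.2% and 24.3% of all tested genes. None was called with the mutant. Of 48 exchange factors, 11 were higher and 10 lower. Rin2, an exchange factor for Rab5, was at 0.137 ± 0.0269 CPM with the empty vector and 2.01 ± 0.426 CPM with wild-type Snai1 (SD, n = 3). It passed the low-count filter only through the wild-type libraries, so its call carries no weight of its own. Rab3ip, also known as Rabin8 and acting on Rab8, went from 8.31 ± 0.782 to 1.19 ± 0.0481 CPM. Dennd3, which acts on Rab12, went from 53 ± 3.52 to 13.3 ± 1.96 CPM (SD, n = 3; adjusted p = 4.43e-07) and Sh3bp5, which acts on Rab11, had a log2 change of -2.43 (SE 0.19, adjusted p = 4.62e-06). The target Rabs Rab12 and Rab11b rose, by 0.40 and 0.35, and Rab8a was at 0.05. Rab8b and Rab11a, the paralogs of Rab8a and Rab11b, were also called higher in the main fit, and in 10 and 9 of 17 alternative settings.

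Of 36 tested GTPase-activating proteins, 10 were higher and 8 lower. Tbc1d9 rose by 2.54 (SE 0.15, adjusted p = 4.91e-07) and Tbc1d8 by 1.28 (SE 0.08, adjusted p = 1.2e-06). Tbc1d10c, expressed in blood cells, went from 82.7 ± 3.55 to 19.8 ± 1.11 CPM (SD, n = 3) and Sgsm2, which acts on Rab32 and Rab38, changed by -0.90 (SE 0.07, adjusted p = 4.49e-06). In the prenylation and membrane cycle, 1 of 8 genes was higher and 3 were lower. Among the latter, Chml, a Rab escort protein, changed by -0.47 and Rabggta, a subunit of the geranylgeranyl transferase, by -0.38, while Chm, the other escort protein, rose by 0.36 (SE 0.10, adjusted p = 0.011).

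Of 38 tested effectors, 15 were higher and 11 lower. The effectors with the smallest adjusted p all fell: Optn, which binds Rab8, by 1.19, Sytl1 and Sytl3, which bind Rab27, by 1.42 and 3.50, and Bicd1, which links Rab6 vesicles to dynein, by 2.12, all on the log2 scale. Sytl3 went from 3.25 ± 0.189 to 0.282 ± 0.106 CPM (SD, n = 3), in the same libraries in which Rab27a and Rab27b rose, and it passed the filter only through the empty vector and mutant libraries. The list of HOPS and CORVET tethers of late and early endosomes also holds the related Vps33b and Vipas39, which are not part of these complexes. Of its 10 genes, 2 were higher, Vps39 by 0.55 and Vps18 by 0.28, and 2 lower, Tgfbrap1 at -0.45 and Vipas39 at -0.33. In the exocyst, 2 of 9 were higher, Exoc5 by 0.37 and Exoc4 by 0.53, and 2 lower, Exoc6 at -1.80 (SE 0.07, adjusted p = 3.7e-08) and Exoc6b at -0.56.

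**Figure D5:**
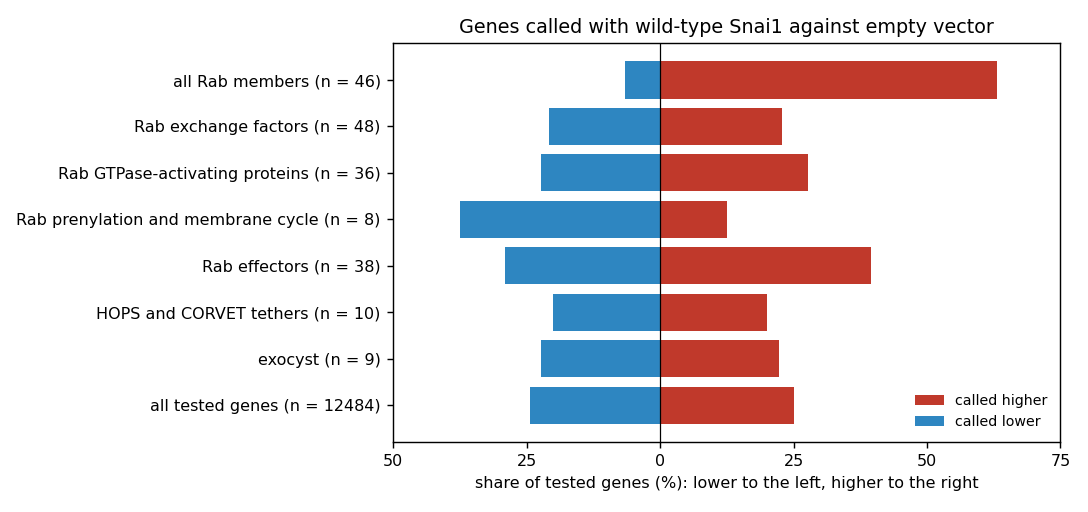
Share of tested genes called higher (right) and lower (left) with wild-type Snai1 against the empty vector, in percent, for the Rab genes, for 6 lists of their partners and for all tested genes; n is the number tested. Rab genes reach 63.0% higher and 6.52% lower, while the exchange factors, with 11 higher and 10 lower of 48, show bars of about equal length on both sides.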

How the data were processed

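RNA of 9 libraries (3 groups of 3) was sequenced after TruSeq stranded mRNA preparation, per the labels' protocols. The authors deposited raw read counts per Entrez gene with a gene length. The submitters' processing notes name featureCounts, the build mm10, edgeR 3.15.0 and limma 3.29.12, while the aligner, the annotation and the strand setting are not given in the sources used here, so reads of overlapping genes on either strand may be mixed. Symbols came from RefSeq GRCm38.p6 (25275 of 27179 identifiers), otherwise from GENCODE M21 (17), and 1887 stayed unnamed. Shared exon bases were computed from GENCODE M21.

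Counts were filtered with filterByExpr, scaled by TMM and fitted in edgeR 4.0.16 (R 4.3.3, limma 3.58.1) with robust quasi-likelihood dispersions over all 9 libraries, with group means and no covariate. Adjusted p-values are Benjamini-Hochberg values over 12484 tested genes, and genes under 0.05 are called. RPKM is TMM-scaled CPM per kilobase of deposited length. Single libraries were compared on log2 CPM (prior count 2). Same-numbered libraries correlated above 0.1 in 2 of 9 pairs and were not treated as paired. With 17 alternative settings, among them DESeq2 1.42.0, every comparison was refitted. Totals of 18332451 to 20860314 counts per library limit the precision of members under about 1 CPM.

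The members, the roles and the partner and marker lists were chosen with earlier results of these data known. Named with full values were members called at 1.5-fold or more in any comparison, the 5 members with the highest RPKM, members failing the filter, the 4 partner genes per list with the smallest adjusted p, Snai1 and Kdm1a. Rab4a, Rab17, Rab36, Rab43 and Rab44 were added after their values were seen. One gene of the partner lists is not reported here by name.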

Additional observations from a re-analysis of the deposited data

How the results depend on the processing

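Of the 32 members called with wild-type Snai1 against the empty vector, 20 higher and 2 lower were called in all 17 alternative settings, and of the 31 called against the mutant, 21 higher and 2 lower. Rab7b, which passed the filter only through the wild-type libraries, is among the 20 and the 21 and carries no weight there. How many of all tested genes kept their call in every setting was not counted. Leaving out each library in turn gave 22 to 27 higher and 2 to 5 lower members against the empty vector, 22 to 28 higher and 2 to 5 lower against the mutant, and 0 to 1 lower for the mutant against the empty vector. Over all tested genes the same fits gave 2599 to 3779 higher and 2507 to 3631 lower against the empty vector. Against the mutant they gave 2537 to 3748 higher and 2441 to 3560 lower. For the mutant against the empty vector they gave 1 to 28 higher and 0 to 34 lower. The 5 lower members against the empty vector without wild-type replicate 1 included Rab4a and Rab17. Against the mutant, 5 were lower under upper quartile scaling, without wild-type replicate 1, and without that library and empty vector replicate 1 together, a setting chosen after seeing the data. Mutant against empty vector gave 1 lower member, Rab44, in the 6-library fit and without wild-type replicate 1, beside 17 and 34 lower among all tested genes. Upper quartile scaling, which moved the median of all genes by -0.06, gave 22 higher members in both wild-type comparisons, and over all 12484 genes it called 2614 higher and 3607 lower against the empty vector, beside 3143 and 3029 with TMM. With the replicate number as a block, 27 members were higher against the empty vector, 26 of them shared, and 27 against the mutant. Over all tested genes the block gave 2976 higher against the empty vector and 2907 against the mutant. Same-numbered libraries correlated between -0.087 and 0.21, and 4 of 9 correlated best with their own number. The cause of these shifts was not tested. Depth limits Rab7b, Rab20, Rab3a and Rab36 most, all under 5 CPM.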
